A study of Homo sapiens with 6 samples.

Results

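The hypoxia response was followed through 10 genes in human U251 glioblastoma cells, an established line. The genes are HIF1A and 9 well-known targets of the hypoxia-inducible factors: EGLN3, VEGFA, ADM, CA9, BNIP3, PDK1, P4HA1, NDRG1 and KDM3A. They were taken from the deposited tables by exact gene name, and each name occurred in 1 row, so the set holds 10 of 42307 listed genes. Bulk RNA sequencing compared cells given a negative control plasmid (NC, 3 libraries) with cells given a STING overexpression plasmid (STING, 3 libraries), each at 1 ug per well and harvested on day 3. Both groups carry the genotype label WT, and the labels name no low-oxygen treatment, no reporter and no share of transfected cells. Nothing in the labels says that replicates came from separate cultures, so p-values reflect only how much these samples scatter, and that scatter may be technical. In bulk RNA, fewer cells that express a gene and less of its RNA per cell cannot be told apart.

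Hypoxia-inducible factors are pairs of an oxygen-regulated alpha subunit, HIF-1 alpha from HIF1A or HIF-2 alpha from EPAS1, and a stable beta subunit from ARNT or ARNT2. When oxygen is present, the prolyl hydroxylases EGLN1, EGLN2 and EGLN3 mark the alpha subunit, the VHL ubiquitin ligase removes it, and HIF1AN blocks its contact with the coactivators EP300 and CREBBP. The alpha subunits are thus controlled largely at the level of the protein, which RNA counts do not measure. When oxygen falls, the factors switch on genes for blood vessel growth, acid handling, mitochondrial turnover, glucose use and collagen maturation. In glioblastoma these genes are known from the poorly supplied zones around necrosis.

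Hypoxia-inducible factors bind DNA at a short core, ACGTG or GCGTG on either strand. To show where these targets carry it, the 250 bases before each gene start were searched in the RefSeq promoter table (build GRCh38.p14). The table had 11 records for 8 of the members (HIF1A, ADM, BNIP3, CA9, EGLN3, P4HA1, PDK1 and KDM3A). Of the 11 records 8 (in 7 genes) held a core of either kind and 4 (in 4 genes) held ACGTG. Over all 35116 records of the same length 43.2% held either core and 18.5% held ACGTG. GC content, which bears on how often a core with CG occurs, had a median of 68% over the member records and 58% over all records. The 4 stretches with ACGTG are shown 5′ to 3′ on the gene's strand, with cores in capitals on either strand (CACGT and CACGC are the reverse complements of ACGTG and GCGTG).
CA9, chr9:35673868-35673917, plus strand: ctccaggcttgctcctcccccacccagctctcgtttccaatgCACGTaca
BNIP3, chr10:131982015-131982075, minus strand: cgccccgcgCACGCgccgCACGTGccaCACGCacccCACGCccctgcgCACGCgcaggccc
P4HA1, chr10:73096936-73096964, minus strand: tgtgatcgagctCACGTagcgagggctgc
PDK1, chr2:172556061-172556089, plus strand: cctgctgcccgcCACGTccctCACGTacc
The BNIP3 stretch holds 6 matches, counting both strands of its palindrome CACGTG, and that of PDK1, before the second of its gene starts, holds 2. CA9 and P4HA1 have 1 each, at bases −18 and −86 from the start. A match describes the letters in this window and is not evidence of binding, and none in the EGLN3 window says nothing about its regulation.

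Library totals lay between 71498790 and 76566375 counts, at which 3 counts correspond to 0.0392 to 0.042 CPM (counts scaled to library size). This floor covers counting error only. STING1, the gene on the plasmid, stood at 34.8 ± 3.15 CPM in NC and 52.8 ± 4.79 CPM in STING libraries (SD, n = 3), a rise of 1.51-fold (edgeR adjusted p = 0.00221). Adjusted p-values here come from edgeR's quasi-likelihood F-test over 21679 genes that passed a filter on low counts, corrected by Benjamini-Hochberg, with a threshold of 0.05. Of the glioma markers, GFAP, VIM, NES, SOX2, CD44 and EGFR were present, while S100B and OLIG2 did not exceed 0.331 CPM in any library. GFAP, the astrocyte filament gene, fell from 39.1 ± 3.98 to 21.5 ± 3.88 CPM (edgeR adjusted p = 0.0330), and its part in the hypoxia gene results was not tested. The markers of other cell types did not exceed 1.80 CPM, apart from the leukocyte gene PTPRC (0.937 to 7.64) and CD68 (17.3 to 34.3).

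All 10 members were well expressed, and none passed the threshold for a difference between the plasmids in any test run. Of the 10, 0 rose and 0 fell by edgeR, against 1.49% of all tested genes called in either direction (0.604% higher and 0.89% lower). DESeq2 and limma-voom also called 0, where they called 7.51% of 12310 and 0.632% of 21679 genes. Before adjustment, 1 member (ADM) had p below 0.05 in edgeR, against 14.4% of all tested genes. In DESeq2 3 members had it (NDRG1, CA9 and ADM), against 8.12% of 38278 genes, low counts included. In limma-voom 2 had it (NDRG1 and CA9), against 14.4%. The 3 NC and 3 STING libraries overlapped in CPM for every member, so 0 of 10 separated the groups, against 19.9% of all tested genes. The estimates were split evenly, 5 above and 5 below 0. Their median log2 fold change (STING over NC) was −0.0018, beside 0.0010 over all tested genes. For 7 members the estimate was within 10% of no change, as it was for 11285 of the 21679 tested genes. A p above the threshold does not show equality, so the 95% interval of the fold change is given with each gene.

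**Figure D1:**
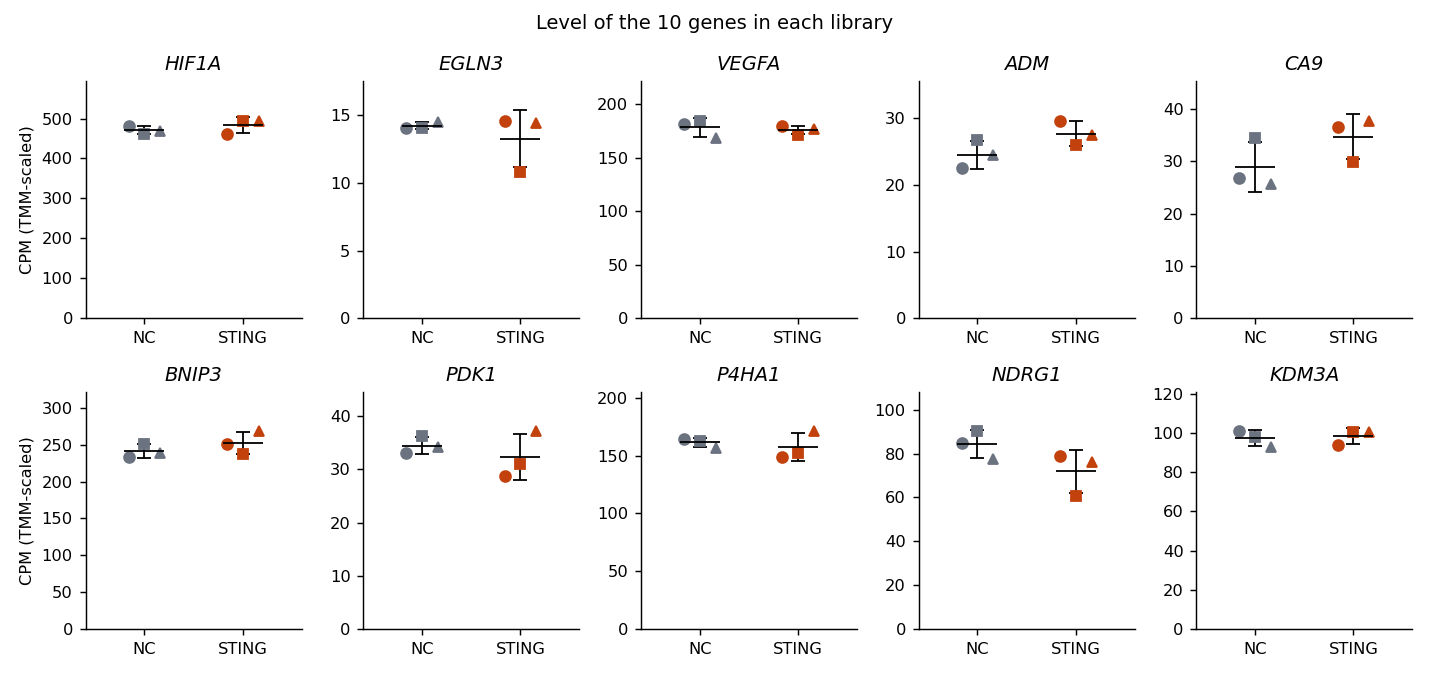
Level of each member in CPM (TMM-scaled) in the 3 NC libraries (grey) and the 3 STING libraries (orange); circle, square and triangle are replicates 1, 2 and 3, and bars are the mean and SD. The groups overlap in all 10 panels, and the clearest low point is STING replicate 2 for NDRG1 and EGLN3.

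HIF1A (ENSG00000100644, chromosome 14, 61695513 to 61748258, plus strand, in coordinates that match GRCh38) was the most abundant member. It stood at 482, 462 and 470 CPM in NC libraries 1, 2 and 3 and at 460, 495 and 495 CPM in STING libraries 1, 2 and 3. The lowest value of all was thus in a STING library. Its fold change was 1.03 (95% interval 0.962 to 1.09), a log2 value of 0.04 with a standard error of 0.044 (edgeR adjusted p = 0.795). With a correction for GC content and transcript length the log2 value was −0.01, so its sign is not determined. The antisense models HIF1A-AS1 and HIF1A-AS3 overlap HIF1A, but had 0.248% and 0.0838% of its counts.

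The oxygen sensor EGLN3, a prolyl hydroxylase that is itself induced by hypoxia-inducible factors (ENSG00000129521, chromosome 14, 33924227 to 34222953), was the least abundant member per length. Its values were 14.1, 14.1 and 14.5 CPM with the control plasmid and 14.6, 10.8 and 14.4 CPM with the STING plasmid. STING library 2 stood below the other 5 libraries, which were within 1 CPM of each other. Its fold change was 0.932 (95% interval 0.794 to 1.095, edgeR adjusted p = 0.768), and without STING library 2 the log2 value changed from −0.10 to 0.03.

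Of the secreted signals, VEGFA, the main growth factor for blood vessels (ENSG00000112715, chromosome 6, 43770184 to 43786487), was at 181, 185 and 169 CPM in the NC libraries and 179, 171 and 177 CPM in the STING libraries. All 3 STING values lay inside the range of the controls. For VEGFA the fold change was 0.987 (95% interval 0.920 to 1.06, edgeR adjusted p = 0.921). ADM, which encodes the vasodilator peptide adrenomedullin (ENSG00000148926, chromosome 11, 10305073 to 10307397), was at 22.5, 26.7 and 24.4 CPM in the NC libraries and 29.6, 26.0 and 27.5 CPM in the STING libraries. STING libraries 1 and 3 were above every control, and STING library 2 was below NC library 2. In DESeq2 and limma-voom NDRG1 had the smallest p of the members (unadjusted p = 0.00777 and 0.0288). In the main edgeR fit ADM had the smallest (unadjusted p = 0.0393, adjusted p = 0.309). The fold change of ADM was 1.13 (95% interval 1.01 to 1.27). In the 18 alternative analyses its log2 value stayed positive, between 0.12 and 0.24, and its adjusted p was at least 0.103.

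CA9, the membrane carbonic anhydrase that exports acid equivalents (ENSG00000107159, chromosome 9, 35673918 to 35681159), varied most between libraries. It was at 26.8, 34.4 and 25.7 CPM in the NC libraries and 36.5, 29.8 and 37.8 CPM in the STING libraries. NC library 2 lay above STING library 2, so the groups crossed. For CA9 the fold change was 1.20 (95% interval 0.964 to 1.49, edgeR adjusted p = 0.45). CA9 shares 1949 bases with ARHGEF39 on the opposite strand, and ARHGEF39 had 126% of the counts of CA9. Without a stated strand setting, reads of the shared stretch cannot be assigned, so the value of CA9 is uncertain. When both were summed, the log2 fold change was 0.08 in place of 0.26. It was 0.40 without NC library 2 (edgeR adjusted p = 0.117).

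For the mitochondrial members the groups overlapped as well. BNIP3, a receptor for the removal of mitochondria (ENSG00000176171, chromosome 10, 131966455 to 131982013), was at 234, 252 and 239 CPM in the NC libraries and 250, 238 and 268 CPM in the STING libraries. Its highest value was in STING library 3, and STING library 2 lay within the controls. For BNIP3 the fold change was 1.04 (95% interval 0.969 to 1.12, edgeR adjusted p = 0.662). PDK1 (ENSG00000152256, chromosome 2, 172555373 to 172599137) encodes a mitochondrial kinase that inhibits pyruvate dehydrogenase. Its values were 33.1, 36.2 and 34.1 CPM in the NC libraries and 28.8, 31.0 and 37.2 CPM in the STING libraries. The STING libraries held both the lowest and the highest PDK1 value. For PDK1 it was 0.937 (95% interval 0.828 to 1.06, edgeR adjusted p = 0.7). Its log2 value was −0.09, and −0.21 without STING library 3 (edgeR adjusted p = 0.25).

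P4HA1, the catalytic subunit of collagen prolyl hydroxylase (ENSG00000122884, chromosome 10, 73007217 to 73096974), was at 165, 163 and 157 CPM in the NC libraries and 149, 152 and 171 CPM in the STING libraries. As for PDK1, STING library 1 was the lowest and STING library 3 the highest of the 6. P4HA1 had a fold change of 0.974 (95% interval 0.900 to 1.05, edgeR adjusted p = 0.843). NDRG1, a stress-induced gene of differentiation (ENSG00000104419, chromosome 8, 133237175 to 133302022), was at 85.0, 90.2 and 77.5 CPM in the NC libraries and 78.8, 60.8 and 76.3 CPM in the STING libraries. STING libraries 2 and 3 were below every control, while STING library 1 was above NC library 3. The fold change was 0.855 (95% interval 0.721 to 1.01, edgeR adjusted p = 0.39, DESeq2 adjusted p = 0.0793). Its log2 value was −0.23, and −0.12 without STING library 2. KDM3A, a histone demethylase that removes methyl groups from H3K9 (ENSG00000115548, chromosome 2, 86440647 to 86492716), was at 101, 98.2 and 92.8 CPM in the NC libraries and 93.7, 101 and 101 CPM in the STING libraries. The values of both groups covered nearly the same range. The fold change was 1.01 (95% interval 0.938 to 1.09, edgeR adjusted p = 0.944).

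Per unit of gene length, on the authors' FPKM scale, the order of the members was the same with both plasmids. With the control plasmid HIF1A led at 83.9 ± 2.71 FPKM (SD, n = 3), followed by P4HA1 (47.9 ± 1.65), BNIP3 (41.6 ± 1.24), CA9 (16.5 ± 2.61) and VEGFA (11.3 ± 0.589). Below these came ADM (9.65 ± 0.740), KDM3A (6.71 ± 0.350), NDRG1 (6.42 ± 0.497), PDK1 (2.13 ± 0.0814) and EGLN3 (1.77 ± 0.0252). Neighbours whose libraries overlapped were KDM3A and NDRG1 in the NC group, and P4HA1 and BNIP3, VEGFA and ADM, and PDK1 and EGLN3 in the STING group. The levels of these pairs were thus not separated within that group. The order in CPM was different. In the NC libraries VEGFA (169 to 185 CPM) and KDM3A (92.8 to 101 CPM) lay above CA9 (25.7 to 34.4 CPM). The rank of CA9 above these genes thus holds only per length. FPKM depends on the length assigned to each gene, and the annotation used for it is not named. The rank of CA9 is also uncertain because of its overlap with ARHGEF39.

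The members did not move as a block from library to library. Among the 45 pairs of members, Pearson's r of log2 CPM over the 6 libraries ranged from −0.64 (HIF1A and NDRG1) to 0.89 (P4HA1 and PDK1), with a median of 0.21. BNIP3 with CA9 (0.88), ADM with CA9 (0.87) and NDRG1 with EGLN3 (0.82) were the next highest. These values describe 6 libraries and have no test. Within a library all members share its scaling factor, and the trend with GC content differed between libraries (−0.0630 to 0.0414 per 10% on the log2 scale). The highest value of a member fell in STING library 3 for 4 members. That library held the lowest value of 0 members, and so did NC library 2. HIF1A itself was closest to KDM3A among the members (r = 0.74). Of 13745 genes whose mean reached 1 CPM, the 3 most like it were EPS8, NSF and DDX5 (r = 0.989, 0.988 and 0.987). The highest of so many correlations over 6 points is high by selection alone.

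In the oxygen-sensing machinery, 2 of 21 tested genes fell, 0 rose and the other 19 were not called, against 0.89% of all tested genes lower and 0.604% higher. The median log2 fold change of this list was 0.02. Groups without overlap were seen for 5 of the 21 (23.8%, against 19.9% of all tested genes). Both genes that fell encode DNA-binding subunits of hypoxia-inducible factors. EPAS1, which encodes HIF-2 alpha (ENSG00000116016, chromosome 2, 46293667 to 46386696), was at 111, 106 and 107 CPM in the NC libraries and 94.6, 86.9 and 87.9 CPM in the STING libraries. The groups did not overlap. Its level fell to 0.831 of the control level (log2 fold change −0.27, SE 0.049, edgeR adjusted p = 0.0139). ARNT2, the beta subunit known from neural tissue (ENSG00000172379, chromosome 15, 80404350 to 80597933), was at 17.3, 16.1 and 16.9 CPM in the NC libraries and 13.7, 12.6 and 13.0 CPM in the STING libraries. It fell to 0.781 of the control level (log2 fold change −0.36, SE 0.085, edgeR adjusted p = 0.0475). ARNT2 lost its call in 11 of the 18 alternatives, among them limma-voom (0.0803) and total counts only (0.059), with log2 values between −0.39 and −0.32 throughout. Both calls were lost on log2 FPKM values (adjusted p of 0.141 and 0.199) and when any 1 library other than STING library 1 was left out. The adjusted p then lay between 0.0594 and 0.102 for EPAS1 and between 0.115 and 0.204 for ARNT2, while the log2 value of EPAS1 stayed between −0.31 and −0.24. With the GC and length correction EPAS1 passed (−0.24, adjusted p = 0.0147) and ARNT2 did not (−0.33, adjusted p = 0.0559).

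**Figure D2:**
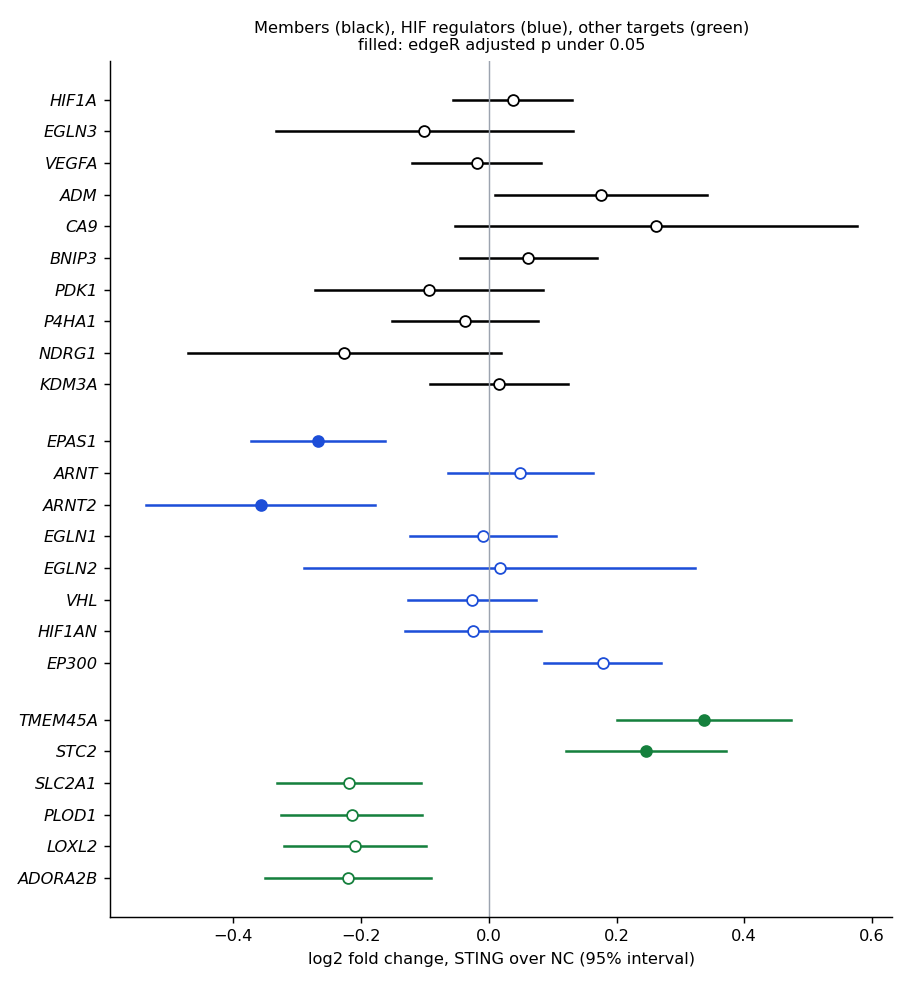
Log2 fold change, STING over NC, with its 95% interval, for the 10 members (black), regulators of hypoxia-inducible factors (blue) and other target genes (green); filled points passed the edgeR threshold. The members scatter around 0, EPAS1 and ARNT2 are filled to its left, and TMEM45A and STC2 are filled to its right.

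EGLN1, EGLN2, VHL, HIF1AN and ARNT, whose products act on HIF-1 alpha or pair with it, did not pass the test. The hydroxylase EGLN1 was at 114 ± 7.96 and 113 ± 3.28 CPM (NC and STING, SD, n = 3), EGLN2 at 70.6 ± 12.4 and 71.4 ± 2.47 CPM, and the ligase component VHL at 113 ± 4.98 and 111 ± 0.967 CPM. The asparagine hydroxylase HIF1AN was at 104 ± 3.61 and 102 ± 4.82 CPM, and the beta subunit ARNT at 59.9 ± 3.01 and 62.0 ± 1.55 CPM. In each of these 5 the groups overlapped. The coactivator gene EP300 was at 132 ± 1.51 and 149 ± 1.66 CPM, with no overlap, a fold of 1.13 and an edgeR adjusted p of 0.0511. SENP1, a protease that removes SUMO, had a fold of 1.154 (adjusted p = 0.0794), the ribosomal scaffold RACK1 one of 0.914 (adjusted p = 0.179) and the elongin ELOC one of 1.08 (adjusted p = 0.471). DESeq2, which called 7.51% of all its genes, called 5 genes of this list, EP300 and SENP1 higher and EPAS1, ARNT2 and RACK1 lower. In edgeR, EP300 also passed with the GC and length correction, with the stricter filter, with total counts only and without STING library 1. SENP1 passed with total counts only (adjusted p = 0.0417) and RACK1 without STING library 1 (adjusted p = 0.0186).

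HIF1A and EPAS1 were also compared within each library, as the log2 ratio of their counts, in which library scaling cancels. The ratio was 2.12, 2.12 and 2.14 in the NC libraries and 2.28, 2.51 and 2.49 in the STING libraries. Every STING value was above every control, and STING library 1 lay nearest to them. The difference was 0.30 on the log2 scale (exact permutation p = 0.1, two-sided). That is the smallest p that 3 against 3 samples allow, and it was 0.2 after adjustment over the 12 ratios described here. HIF1A itself had a log2 fold change of 0.04 and EPAS1 one of −0.27, so the ratio largely restates the fall of EPAS1. Per length, HIF1A stood 6.17 ± 0.0512 times above EPAS1 in FPKM with the control plasmid and 7.64 ± 0.648 times above it with the STING plasmid (SD, n = 3).

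The same within-library ratio was formed for the other members except ADM and their relatives, 12 pairs in all with HIF1A and EPAS1, chosen after the fold changes had been seen. VEGFA over VEGFB, BNIP3 over its homologue BNIP3L and CA9 over CA12 were higher in every STING library than in every control, by 0.22, 0.22 and 0.70. VEGFA over VEGFC and NDRG1 over NDRG3 were lower in every STING library, by 0.16 and 0.18. Each of these had the smallest possible exact permutation p of 0.1, and 0.2 after adjustment. The log2 fold change was −0.02 for VEGFA, −0.23 for VEGFB and 0.14 for VEGFC, so the VEGFA ratios follow the relatives more than VEGFA. It was 0.06 for BNIP3 and −0.16 for BNIP3L, and 0.26 for CA9 and −0.45 for CA12, so there too the relative had the larger estimate. For NDRG1 (−0.23) and NDRG3 (−0.05) the member had the larger one. How often ratios of arbitrary gene pairs separate the groups was not computed. P4HA1 over P4HA2, PDK1 over PDK2 and over PDK3, KDM3A over KDM3B, and EGLN3 over EGLN1 and over EGLN2 overlapped between the groups. CA12 was low (2.19, 1.38 and 1.26 CPM in the NC libraries), so its ratio is imprecise. For CA9 over CA12 the highest control (4.629, NC library 2) lay just below the lowest STING value (4.639, STING library 2). The count of CA9 is itself uncertain, because of its overlap with ARHGEF39.

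**Figure D3:**
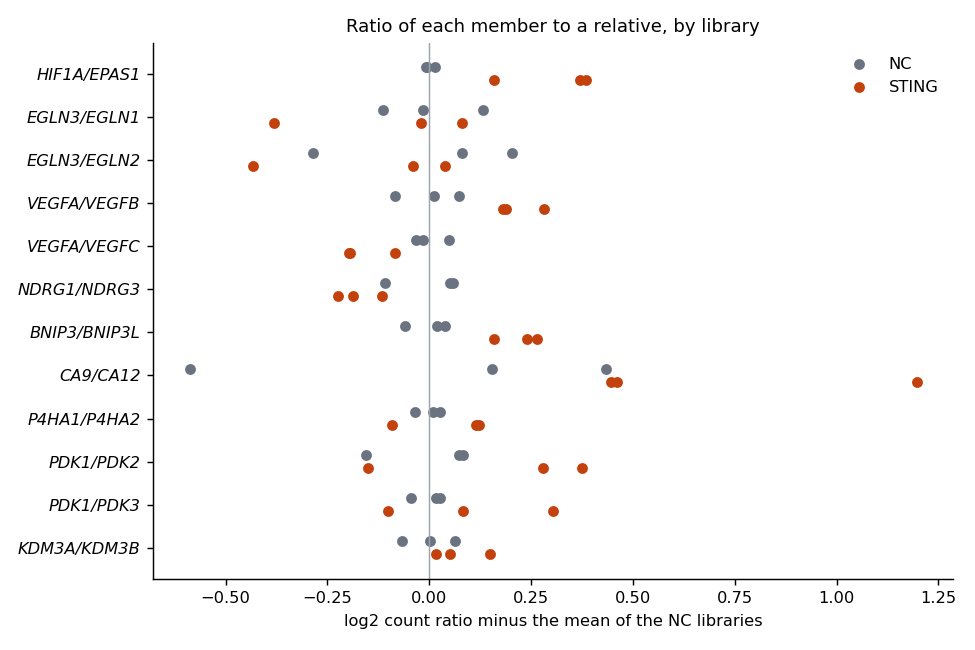
Log2 ratio of a member's count to that of a relative in each library, shown as the difference from the mean of the 3 NC libraries (grey, NC; orange, STING). The HIF1A/EPAS1 ratio of the NC libraries is tight, and all 3 STING libraries lie to the right of it.

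Relatives and signalling partners of the members gave 0 calls by edgeR among 31 tested genes. Their median log2 fold change was −0.02. Before adjustment 10 of them (32.3%) had p below 0.05, against 14.4% of all tested genes, and the groups did not overlap for 7 (22.6%), against 19.9%. DESeq2 called 2 lower, VEGFB and NRP2, against 7.51% of its genes in either direction, and limma-voom called 0. In edgeR the stricter filter gave the same 2 calls, where it called 686 of 14979 genes. NRP2 also passed without the filter (adjusted p = 0.0416) and VEGFB without STING library 1 (adjusted p = 0.0468). NRP2, a co-receptor for VEGF ligands, was at 652 ± 24.0 and 574 ± 32.7 CPM (fold 0.880, edgeR adjusted p = 0.0707). VEGFB was at 38.4 ± 1.18 and 32.6 ± 1.99 CPM (fold 0.850, edgeR adjusted p = 0.0794). PDK3 and PDK2, relatives of PDK1, had folds of 0.873 and 0.832 (edgeR adjusted p of 0.175 and 0.216). FLT4, ADM2 and the adrenomedullin receptor partners RAMP1, RAMP2 and RAMP3 did not pass the filter on low counts, nor did HIF3A of the machinery list.

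Of 47 other target genes of hypoxia-inducible factors, 2 rose, 0 fell and the remaining 45 were not called, against 0.604% of all tested genes higher and 0.89% lower. Before adjustment 13 of the 47 (27.7%) had p below 0.05, 10 of them lower, against 14.4% of all tested genes (1561 lower and 1555 higher). TMEM45A, a transmembrane protein gene (ENSG00000181458, chromosome 3, 100492619 to 100577444), was at 27.7, 29.6 and 27.9 CPM in the NC libraries and 37.0, 33.7 and 36.8 CPM in the STING libraries. It rose 1.26-fold (log2 fold change 0.34, SE 0.064, edgeR adjusted p = 0.0163). STC2, which encodes the secreted glycoprotein stanniocalcin 2 (ENSG00000113739, chromosome 5, 173314713 to 173329503), was at 40.8, 39.4 and 38.7 CPM in the NC libraries and 47.9, 44.1 and 49.0 CPM in the STING libraries. It rose 1.19-fold (log2 fold change 0.25, SE 0.059, edgeR adjusted p = 0.0495). The groups did not overlap for either gene. Without NC library 1, 2 or 3 or STING library 3 TMEM45A lost its call (adjusted p 0.0633 to 0.104), and STC2 lost it without any 1 of the 6 libraries (adjusted p 0.0574 to 0.19). STC2 also missed the threshold with RLE (0.052) or upper-quartile scaling (0.0548), and on log2 FPKM values both did (0.16 for STC2 and 0.1 for TMEM45A). With limma-voom the adjusted p was 0.104 for STC2 and 0.05 for TMEM45A. The log2 values stayed between 0.21 and 0.29 for STC2 and between 0.29 and 0.38 for TMEM45A in the 18 alternatives. With a GC and length correction both passed in edgeR (adjusted p of 0.0285 for STC2 and 0.048 for TMEM45A). With the replicate number added as a block neither did (0.0824 and 0.148). The longest transcript had 51.7% GC for STC2 and 37.7% for TMEM45A, against a median of 44.3% over the genes called higher. The part of GC content in these rises was not tested.

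In that list 30 estimates were below 0 and 17 above, where all tested genes had 10794 below and 10885 above. The median log2 fold change of the list was −0.07. This median was −0.02 without STING library 2, −0.04 without NC library 2 and −0.10 without STING library 3. The groups did not overlap for 11 of the 47 (23.4%), against 19.9% of all tested genes. The controls were above for 9 and the STING libraries for 2, where all tested genes had 2109 and 2198. SLC2A1, the glucose transporter GLUT1, was at 328 ± 8.64 and 282 ± 22.02 CPM (fold 0.859, edgeR adjusted p = 0.0516). The collagen lysyl hydroxylase PLOD1 (fold 0.862) and the lysyl oxidase LOXL2 (fold 0.865) had adjusted p of 0.0516 and 0.0587, and the adenosine receptor ADORA2B (fold 0.858) one of 0.0899. These 4 missed the threshold in the main edgeR fit. DESeq2, which called 7.51% of all its genes, called them lower together with DDIT4 and SLC16A3. DDIT4 and SLC16A3 are named here after their values were seen. In edgeR, SLC2A1, PLOD1 and LOXL2 passed with upper-quartile scaling (adjusted p 0.0373, 0.0376 and 0.0418) and without STING library 1 (0.0109, 0.0333 and 0.0299). They also passed without the filter (0.0208, 0.0251 and 0.027) and with the stricter one (0.0116, 0.013 and 0.0146), where ADORA2B passed too (0.0446). The GC content of the longest transcript was 54.8% for SLC2A1, 58.6% for PLOD1 and 58.2% for LOXL2, against a median of 47.9% over tested genes and 56.3% over the genes called lower. The trend of a library with GC content, per 10%, was 0.0119 to 0.0414 on the log2 scale in the NC libraries and 0.0278, −0.0630 and −0.0338 in STING libraries 1, 2 and 3. With that trend and length corrected, the log2 values were −0.18 for SLC2A1, −0.15 for PLOD1 and −0.15 for LOXL2, against −0.22, −0.21 and −0.21 without correction. In the main fit and with this correction these 3 missed the threshold. ADORA2B (43.8% GC) passed with the correction (−0.25, edgeR adjusted p = 0.043), and the part of GC content in these values was not tested.

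**Figure D4:**
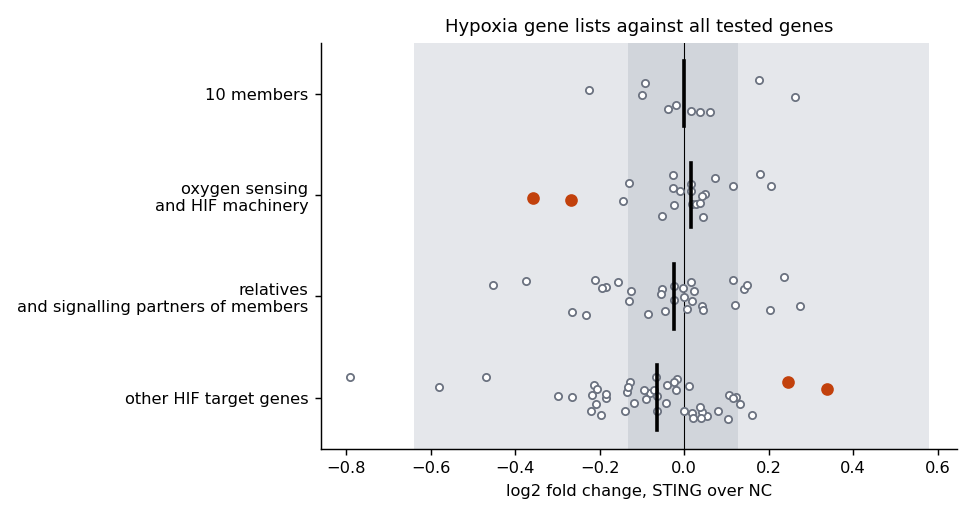
Log2 fold change, STING over NC, of each tested gene in the 4 lists (vertical bars are list medians, filled orange points passed the edgeR threshold); shaded bands hold the middle of all tested genes, from −0.13 to 0.13 (25th to 75th percentile, dark) and from −0.64 to 0.58 (5th to 95th, light). The 10 members centre on 0, and the other targets lie mostly to its left.

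**Figure D5:**
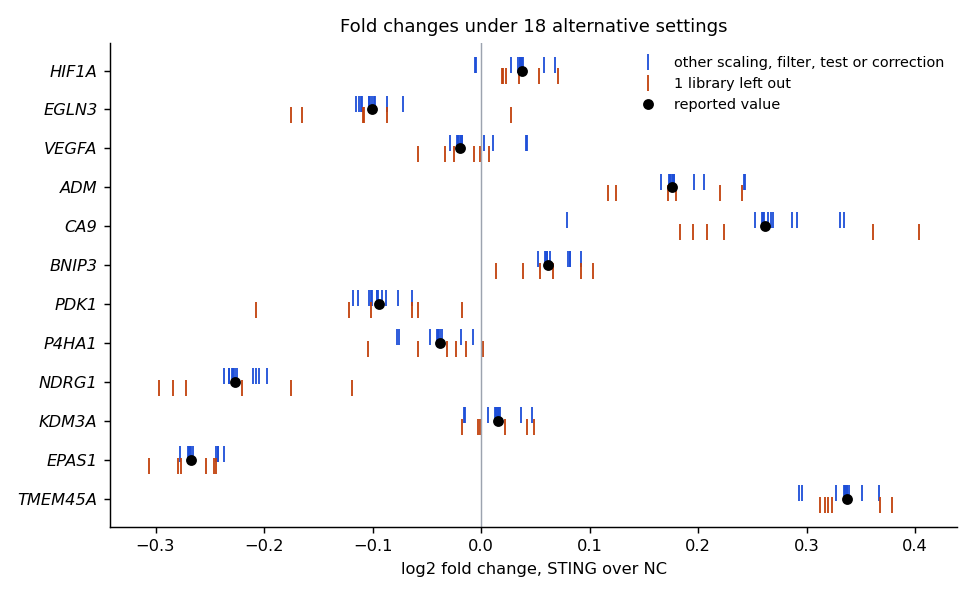
Log2 fold change of the 10 members, EPAS1 and TMEM45A as reported (black points), under 12 other settings of scaling, filter, test or correction (blue) and with 1 library left out (orange). HIF1A, EGLN3, VEGFA, P4HA1 and KDM3A have values on both sides of 0, while those of ADM, CA9, BNIP3, PDK1, NDRG1, EPAS1 and TMEM45A each lie on 1 side.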

How the data were processed

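Per the labels' protocols, RNA was extracted with Trizol and sequenced from Illumina TruSeq libraries; Bowtie 0.12.2 is listed in the submitters' processing notes. The sources used here do not name the counter, annotation, build or strand setting. The authors' read counts and FPKM values per Ensembl gene were deposited side by side, 1 table per library, per the file headers. GENCODE v29 held 40903 of the 42307 identifiers, with the start or the end matching to 1 base for 89.8%, and coordinates are therefore called GRCh38.

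The test on counts of the 6 libraries used edgeR 4.0.16 under R 4.3.3 (filterByExpr, TMM, robust quasi-likelihood fit, two-sided), without covariates. Standard errors were derived from the fold change and F (its size over the root of F). Alternatives used DESeq2 1.42.0 and limma 3.58.1 (voom, and log2 FPKM with 0.1 added), other scalings and filters, the replicate number as a block, offsets for GC content and length, and each library left out. The procedure was tested on simulated data. The members, lists and rule for named genes were chosen with earlier results of these data known. Named genes were the members, STING1, EPAS1, ARNT and direct regulators of HIF-1 alpha. In each other list they were the called genes plus the 4 next smallest p. Overlapping gene models, the 3 genes most like HIF1A and the cell type markers were named as well. No replicate pair agreed within sampling noise (chi-square per gene 11.7 to 23.0).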

Additional observations from a re-analysis of the deposited data

How the results depend on the processing

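Under 18 alternatives (12 other settings and 6 analyses with 1 library left out) 0 members were called, and their median log2 fold change lay between −0.0379 and 0.0287. No name repeated, so summing repeated rows gave no value. The number of called genes was 324, and 686 with the stricter filter, 924 with DESeq2, 137 with limma-voom, 13 on log2 FPKM (where STING1, at 0.614, missed the threshold), 120 with the replicate block, 66 with the block and the GC and length correction, and 60 to 741 with 1 library left out. With the block EPAS1 kept its call, and ARNT2, TMEM45A and STC2 lost theirs (adjusted p of 0.118, 0.0627 and 0.126). EPAS1 lost it with the GC and length correction added to the block (0.0533). The labels do not say what same-numbered libraries share. Their deviations from the group means correlated at 0.0172 to 0.0551, none over 0.1, and those of libraries with unlike numbers at −0.0400 to 0.0192. STING libraries 1 and 2 correlated best with the NC library of the same number, and STING library 3 with NC library 2 (0.0192). Whether same-numbered libraries shared a batch was not tested. Of the 47 other targets, 2 were called by edgeR, 8 by DESeq2, 0 by limma-voom and 6 with the stricter filter. Over all tested genes the shares were 1.49% with edgeR, 7.51% with DESeq2 and 0.632% with limma-voom. The stricter filter gave 686 calls among 14979 genes.

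Small estimates changed sign, and the cause was not tested. With total counts only VEGFA was 0.011, EGLN1 0.0215, VHL 0.0035 and HIF1AN 0.0054, and the medians of the machinery and relatives lists moved to 0.0468 and 0.0070. This scaling shifts the median of all genes to 0.0313 and gives 246 higher and 138 lower genes in place of 131 and 193. On log2 FPKM VEGFA was 0.0029 and EGLN1 0.0141. With the GC and length correction HIF1A was −0.0054, VEGFA 0.041 and KDM3A −0.0162, and with the block added −0.0051, 0.0419 and −0.0153. With 1 library left out the ranges were −0.0579 to 0.0068 for VEGFA, −0.175 to 0.0271 for EGLN3, −0.104 to 0.0015 for P4HA1, −0.0179 to 0.0492 for KDM3A, −0.0587 to 0.0422 for EGLN1, −0.0872 to 0.164 for EGLN2, −0.0454 to 0.00999 for VHL, −0.0641 to 0.00028 for HIF1AN, −0.0096 to 0.0278 for the machinery median and −0.0568 to −0.0255 for the relatives median.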
